A study of Mus musculus with 14 samples.

Results

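Erythroid genes were followed across 14 one-colour expression arrays of mouse CD4+ T-cell RNA. The genes were Hba-a1, Hbb-b1, Alas2, Ahsp, Slc4a1, Car1, Car2, Epb42 and Klf1, which are 9 of the 36870 gene names on the array and 13 of its 56605 probes. They are markers of red cell precursors and were chosen by their measured levels on these arrays, so the levels are a description and carry no test. Of the arrays, 7 held RNA from Roquin san/+ mice, which carry 1 copy of the sanroque allele of the RNA-binding protein Roquin, and 7 held RNA from wild-type mice. Replicates are lettered A to G within each genotype. The labels give neither the organ, age, sex or background strain, nor how pure the T-cells were or whether each letter was a separate mouse, so p-values measure the spread between these samples, which may be technical.

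Red cell precursors develop under the transcription factors Gata1 and Klf1, accumulate globin and haem together, build a membrane skeleton around the band 3 anion exchanger, and at last expel the nucleus. The reticulocyte that results makes no new RNA but still translates stored globin messages. T-cells belong to another lineage. The 9 genes stand for different steps: Hba-a1 and Hbb-b1 encode alpha and beta globin, Ahsp encodes the chaperone of free alpha globin, and Alas2 is the erythroid enzyme of the first step of haem synthesis. Slc4a1 is band 3, Epb42 is protein 4.2 of the membrane skeleton, Car1 and Car2 are carbonic anhydrases, and Klf1 is a regulator of many of the others.

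Each probe is a 60-base oligonucleotide, and each value below belongs to the stretch of the transcript that its probe reads. Unless the second probe is named, values of Hba-a1, Car1 and Klf1 are those of the first probe, which is not shown. Probes inside the coding part of 4 members are shown, for alpha globin, which was high on Roquin san/+ F, and for 3 genes that were not. They are written 5′ to 3′ in lower case, and no base is set apart by capitals.
Hba-a1, second probe: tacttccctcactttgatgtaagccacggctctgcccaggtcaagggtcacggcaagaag
Ahsp: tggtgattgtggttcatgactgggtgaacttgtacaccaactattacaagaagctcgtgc
Car1, second probe: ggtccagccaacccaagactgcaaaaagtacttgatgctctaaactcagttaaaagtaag
Klf1, second probe: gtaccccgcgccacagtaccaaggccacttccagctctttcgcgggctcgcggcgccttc
In the mm9 coordinates of the scanner files the Hba-a1 probes lie at chr11:32184427-32184486 and chr11:32183955-32184014 on the plus strand. Both list transcripts of Hba-a1 and of its near-identical copy Hba-a2, so alpha globin is measured as the pair of genes. The probe named Hba-a2 shares 59 of its 60 bases with the first of them. The Hbb-b1 probe (chr7:110976379-110976438, minus strand) lists Hbb-b1 and Hbb-bs, and its first 46 bases match bases 5 to 50 of the RefSeq Hbb-bs transcript, so it reads the 5′ end of adult beta globin. The Car1 probe shown lies at chr3:14770171-14770230 on the minus strand and the Klf1 probe at chr8:87427100-87427159 on the plus strand. The Ahsp probe has no coordinate in the files.

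RefSeq promoter windows (GRCm38.p6) were given for 4 of the 9 members, and 3 are shown for genes whose levels parted on the arrays. Each is the stretch of 250 bases before the transcript start, and capitals mark matches on either strand to a GATA motif (AGATA or TGATA, followed by an A or a G) or a CACC motif (CCNCNCCC), the kinds of site that the GATA and Klf families bind.
Hba-a1, chr11:32283422-32283671, plus strand: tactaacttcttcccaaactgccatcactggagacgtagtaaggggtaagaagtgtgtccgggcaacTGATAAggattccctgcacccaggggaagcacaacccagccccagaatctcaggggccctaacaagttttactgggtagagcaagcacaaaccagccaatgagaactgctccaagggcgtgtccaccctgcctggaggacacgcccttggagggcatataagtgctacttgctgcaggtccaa
Alas2, chrX:150547167-150547416, plus strand: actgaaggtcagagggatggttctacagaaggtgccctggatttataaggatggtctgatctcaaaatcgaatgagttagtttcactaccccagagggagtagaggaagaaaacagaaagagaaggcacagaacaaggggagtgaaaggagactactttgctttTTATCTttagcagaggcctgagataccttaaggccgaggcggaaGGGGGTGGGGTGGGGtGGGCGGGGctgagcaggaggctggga
Klf1, chr8:84901732-84901981, plus strand: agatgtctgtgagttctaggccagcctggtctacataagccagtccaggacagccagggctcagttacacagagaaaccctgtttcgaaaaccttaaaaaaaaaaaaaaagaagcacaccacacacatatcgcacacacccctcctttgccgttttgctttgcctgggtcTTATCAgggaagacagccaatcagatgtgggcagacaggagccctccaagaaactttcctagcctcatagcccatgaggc
All 4 windows, that of Epb42 included, held 1 GATA match, while 26.5% of the 32851 promoter windows of the same length held at least 1. CACC matches were found only in the Alas2 window, where 4 matches overlap in part, and 45.9% of all windows held at least 1.

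The probe names first had to be set right on 2 arrays. On Roquin san/+ G and wild-type E the spots lay 2 grid rows away from their names, and the correlation of their signals with the spot-wise median of the arrays was 0.0143 and 0.0149 as deposited and 0.909 and 0.889 after a move of 2 rows. Alpha globin gives a check within each array, because both Hba-a1 probes are printed at 10 scattered spots. Under the deposited names these spots had SDs of 0.698 to 1.48 on the log2 scale on the 2 arrays. After the move the SDs were 0.143 to 0.169, inside the range of 0.0244 to 0.361 on the other 12 arrays. Mean alpha globin signal at the first probe went from 8.61 to 14.13 (log2 processed signal) on Roquin san/+ G and from 7.27 to 14.03 on wild-type E. The lowest signal the software allowed remained high on both, so that Hbb-b1, Alas2 and Epb42 sat at that limit there and their values are upper limits.

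**Figure D1:**
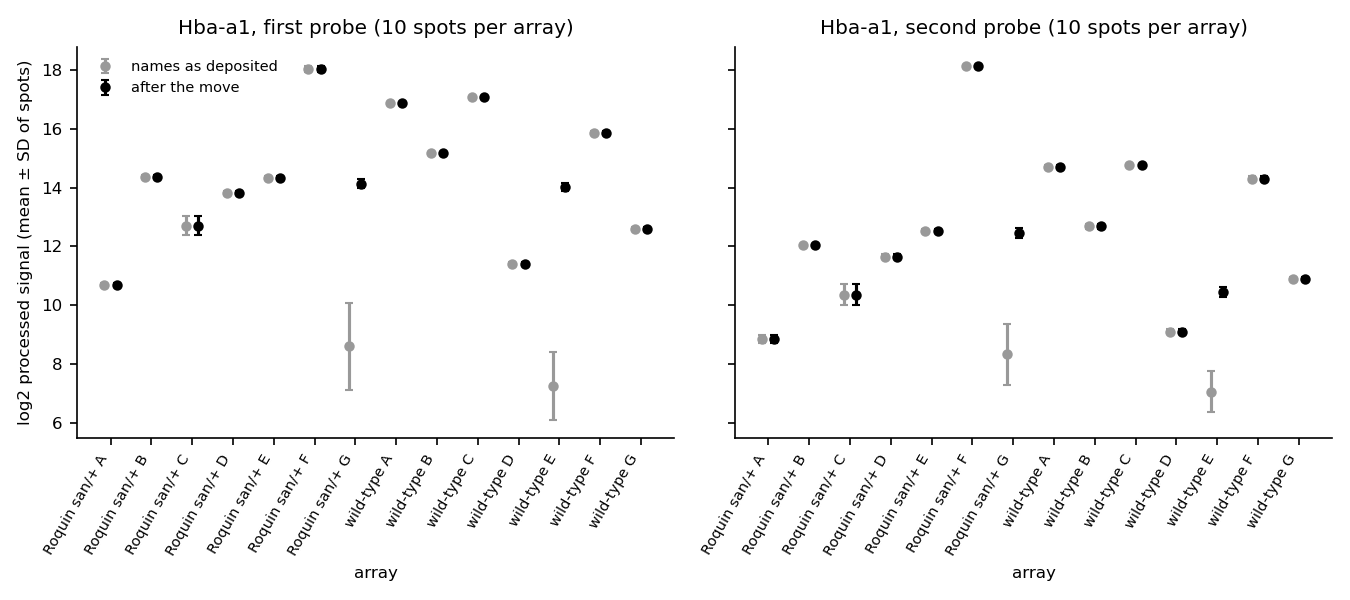
Alpha globin signal on each array (log2 processed signal, mean and SD of the 10 spots of each Hba-a1 probe), under the deposited names in grey and after the move in black. Grey and black differ only on Roquin san/+ G and wild-type E, where the grey SDs of 0.698 to 1.48 shrink to 0.143 to 0.169.

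Facts of the whole series that touch the members are few. The arrays lay on 2 slides, slide 1 with 5 Roquin san/+ and 2 wild-type arrays and slide 2 with 2 and 5. Between 55.4% and 76.5% of probes were well above background on the 12 well-placed arrays, and no spot was saturated. Roquin san/+ C was dim, with a scaling percentile of 9.64 (log2 signal) against 12.3 to 13.7 on the others, so its dim probes sit high after scaling and 41.6% of the 29033 probes detected throughout a genotype were highest on it. All 8 T-cell markers, among them Cd3e, Cd4 and Lck, were well above background on the 12 well-placed arrays. Roquin san/+ F stood apart from its label of CD4+ T-cells, since T-cell markers were lower there (median deviation of -1.30 from their medians over the 12 arrays) and B-cell and CD8 markers far higher (4.80 and 5.17). Whether its cells or its label were as given cannot be told from the labels, so the genotype comparison is given without it too.

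Erythroid genes were detected in nearly every sample, and their levels differed widely. Levels are log2 processed signal less the array's 75th percentile, taken over the 10320 probes that passed the background call on all 14 arrays. On the 12 well-placed arrays 5 members were well above background on all 12, Slc4a1 on 11, Hbb-b1 and Alas2 on 10 and Epb42 on 7. Roquin san/+ C, wild-type A and wild-type C were the 3 highest arrays for all 9 members once Roquin san/+ F was set aside. At the other end, Roquin san/+ A and wild-type D were the 2 lowest for 8 of the 9, the exception being Car1. High and low arrays occurred in both genotypes and on both slides. Apart from F, however, the only high array in Roquin san/+ and on slide 1 was the dim Roquin san/+ C. Its median deviation from the medians over the 12 arrays was 2.32 over the members. The same value was 1.86 over all probes and 0.40 over the 29033 detected probes. The part of scaling in its height was not tested.

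**Figure D2:**
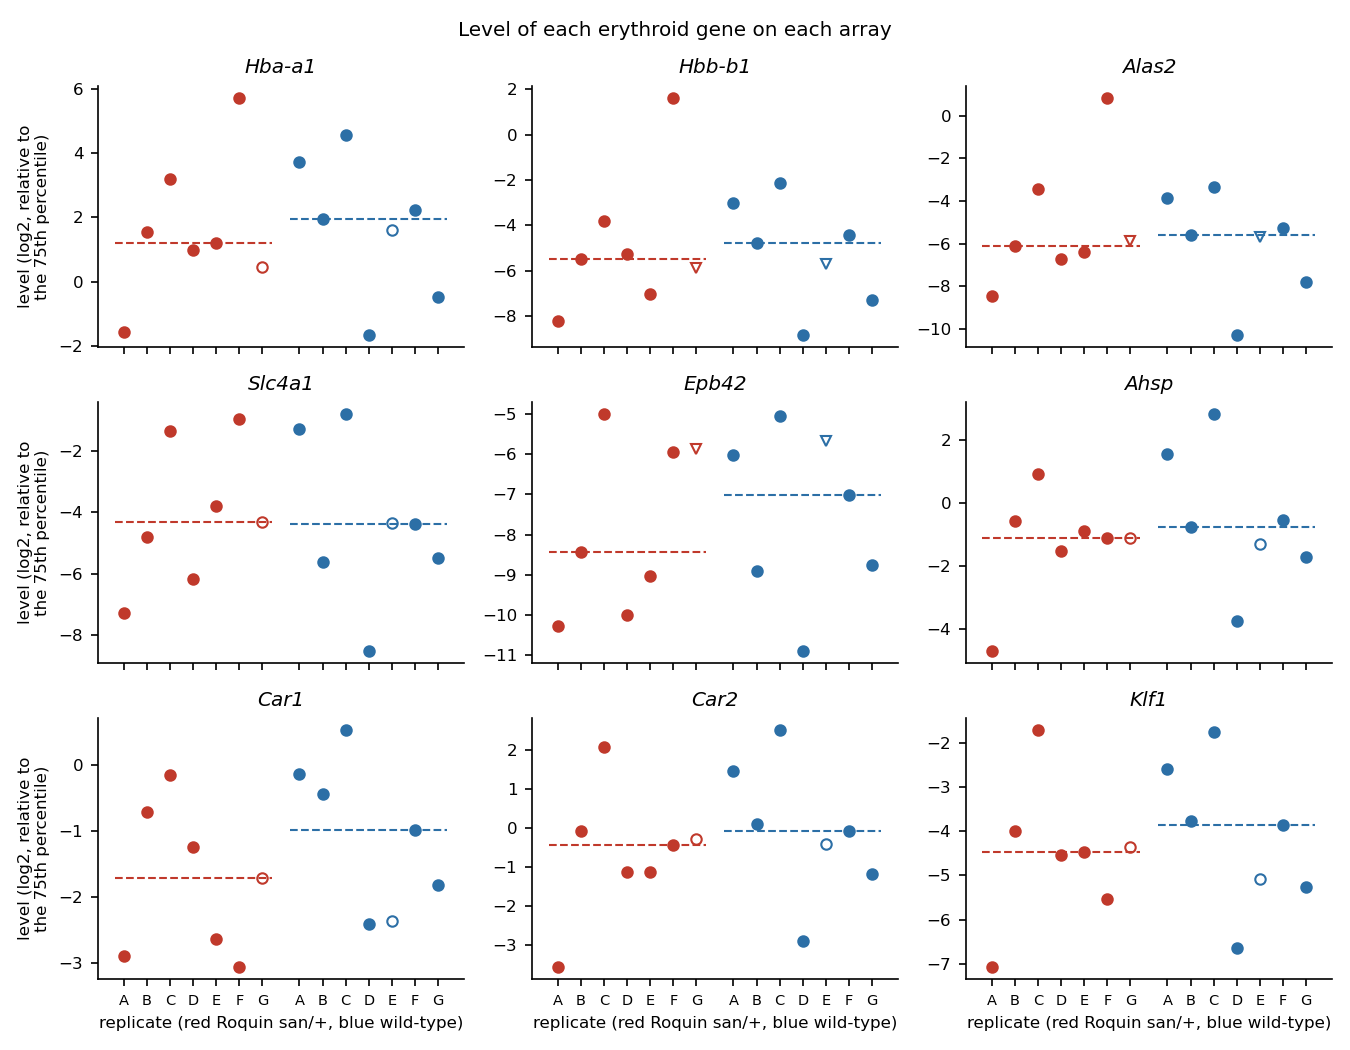
Level of each erythroid gene on each array (log2, relative to the array's 75th percentile), Roquin san/+ in red and wild-type in blue, with dashed lines at the median of each genotype. Open symbols are the 2 displaced arrays, and triangles are values at the lowest signal, which are upper limits. Roquin san/+ F is the highest of 12 well-placed arrays for Hba-a1, Hbb-b1 and Alas2 and the lowest for Car1.

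The first group of members, the globins and the haem enzyme, were highest on Roquin san/+ F, by a wide margin for Hbb-b1 and Alas2 and by a smaller one for Hba-a1. Alpha globin (Hba-a1, first probe) was at -1.57 on Roquin san/+ A, 1.54 on B, 3.18 on C, 0.98 on D, 1.21 on E, 5.72 on F and 0.46 on G. On the wild-type arrays A to G it was at 3.72, 1.96, 4.56, -1.67, 1.62, 2.23 and -0.48. The genotypes overlapped over nearly their whole range, with only Roquin san/+ F above wild-type C. Its height over the median of the other 5 well-placed Roquin san/+ arrays was 4.51 (22.8-fold). The second probe gave 6.60 for the same height, and both probes were among the 6 brightest of 56605 on Roquin san/+ F. Over the 11 other arrays the 2 probes moved within -0.75 to 0.16 of each other, and on Roquin san/+ F they parted by 2.41, so the size of the excess depends on the probe while its direction does not.

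The Hbb-b1 probe gave a larger height on Roquin san/+ F than either Hba-a1 probe. The probe of Hbb-bt, another adult beta globin gene, gave 5.42, between the heights of the first and second Hba-a1 probes. Whether alpha or beta globin stood higher on Roquin san/+ F thus depends on the probes compared. Hbb-b1 ran from -8.21 on Roquin san/+ A through -5.48 on B, -3.79 on C, -5.24 on D and -7.01 on E to 1.62 on F, with an upper limit of -5.88 on G. Wild-type arrays A to D stood at -3.01, -4.77, -2.15 and -8.83, F and G at -4.40 and -7.29, and E at or below -5.67. Roquin san/+ F lay 7.09 above the median of the other 5 (136-fold) and above every wild-type array. Alas2, the gate of erythroid haem synthesis, gave a like order. It was at 0.83 on Roquin san/+ F, where the other well-placed Roquin san/+ arrays lay between -8.47 and -3.47 and the well-placed wild-type arrays between -10.30 and -3.36. Its height on F was 7.23 (150-fold).

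Slc4a1 and Epb42, both parts of the red cell membrane, were high on Roquin san/+ F but not alone there. Slc4a1 ran from -7.29 (A) through a median of -4.33 in Roquin san/+ and from -8.53 (D) through -4.39 in wild-type. It was at -0.96 on Roquin san/+ F, -1.35 on Roquin san/+ C, -1.30 on wild-type A and -0.79 on wild-type C, against -3.78 or less on all other arrays. These 4 arrays stood apart from the remaining 10 for band 3, though Roquin san/+ C among them is the dim array, where dim probes sit high after scaling. Epb42 had the same 4 arrays on top among the well-placed ones, at -5.95, -5.00, -6.03 and -5.06 in that order. It was not well above background on 5 of the 12, and its second probe was well above background on only 3, so its fold range is not given.

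The second group, Ahsp, Car1, Car2 and Klf1, was not high on Roquin san/+ F. Ahsp, the alpha globin chaperone, had a lowest level of -4.70 (A), a median of -1.10 and a highest of 0.93 (C) over the 7 Roquin san/+ arrays, and Roquin san/+ F was itself the median array. Over wild-type it ran from -3.76 (D) through a median of -0.76 to 2.83 (C). Car2 gave the same picture, with -3.57, -0.43 and 2.06 in Roquin san/+, where F was again the median, and -2.89, -0.08 and 2.51 in wild-type. Both lay near the middle of their range on the array with the most globin. Klf1 was at -5.54 there, lower than 9 of the 11 other well-placed arrays. Its lowest, median and highest levels were -7.08, -4.47 and -1.71 in Roquin san/+ and -6.64, -3.86 and -1.76 in wild-type. Car1 reached its lowest level of all arrays on Roquin san/+ F, -3.07, against a median of -1.72 and a highest of -0.15 in that genotype and -2.41, -0.99 and 0.53 in wild-type. For all 4 genes the genotypes overlapped over most of their range. Second probes of Car1 and Klf1 gave heights of -2.44 and -0.76 on F, in the same direction as the first (-1.81 and -1.07).

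Differences between genes within an array do not change when the array is scaled by subtraction. The medians used below do depend on scaling, but they shift a pair by the same amount on every array. The pairs below were taken from the 9 members after their levels on Roquin san/+ F had parted them into groups. A separation on that array was thus fixed in advance, and only its size is described. Each gene was set against its own median over the 12 well-placed arrays, and the deviation of Klf1 was taken from that of Alas2. The difference was 7.99 on Roquin san/+ F and between -2.04 and 0.35 on the 11 other arrays. For Hba-a1 less Ahsp it was 4.24 against -1.35 to 0.55, and for Hbb-b1 less Ahsp 6.89 against -1.94 to 0.67. Ahsp less Klf1, a pair within the second group, differed by 1.04 on Roquin san/+ F, within the -1.03 to 1.18 of the other arrays. Wild-type C showed no such separation, since all 9 members stood above their medians there, by 1.65 to 3.80. On wild-type A the range was 0.98 to 3.29 and on Roquin san/+ C, the dim array, 0.97 to 3.59.

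Without Roquin san/+ F the members kept nearly one order of arrays. Spearman's rho between pairs of members had a median of 0.909 (lowest 0.709, Slc4a1 with Car1) over the 11 other well-placed arrays and 36 pairs. With F included the median was 0.832 and the lowest value 0.392, again for Slc4a1 with Car1. These are descriptions of arrays that share a scaling, and the genes were chosen for their pattern. In RNA from mixed cells, fewer cells of a type and less RNA per cell cannot be told apart.

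The wider set of erythroid genes was also read on Roquin san/+ F and wild-type C. Of 56 listed genes, 54 had a probe under that symbol and 52 were measured (well above background on at least 6 of the 12 well-placed arrays or on Roquin san/+ F), the 9 members among them. On wild-type C 40 of the 52 lay more than 1 log2 unit above their median of the 12 arrays. On Roquin san/+ F this held for 19, and 7 lay more than 1 below. Sptb, Tmod1 and Trim58 counted as measured only with the help of Roquin san/+ F. Among the 49 genes well above background on at least 6 of the 11 other arrays, a rule added after seeing the data, 38 lay more than 1 above on wild-type C and 17 on Roquin san/+ F. The median deviation of the 52 genes was 2.49 on wild-type C and -0.01 on Roquin san/+ F, and that of the 49 was 2.50 and -0.04. Over all probes it was -0.03 and 0.35. Wild-type C was thus high for most erythroid genes and Roquin san/+ F for a part of them.

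Adult globins were the role with the greatest heights on Roquin san/+ F. Of 6 measured globins 5 were highest there, and the exception was the embryonic gene Hbb-bh1. Hba-a2 and Hbb-bt, other adult globin genes, stood 4.57 and 5.42 above the median of the other 5 Roquin san/+ arrays. Near-identical globin copies may share signal, so these are not independent of the members.

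Haem synthesis, read at the brightest probe of each gene, split within the pathway. Of 9 genes measured, 3 were highest on Roquin san/+ F, where 11.5% of the 29033 probes were highest, namely Alas2, the ferrochelatase gene Fech (height 2.36) and Slc25a37 (2.04), which encodes mitoferrin, an importer of iron into mitochondria. At their brightest probes, other enzymes of the pathway did not stand high with them. Alad, Uros, Urod and Cpox stood at heights of -0.07, -0.18, 0.00 and -0.85. Another probe of Uros and another of Cpox followed the order of the members over the 12 arrays (Spearman's rho of 0.860 and 0.916). The heights of Uros and Cpox on Roquin san/+ F may thus depend on the probe. On wild-type C 8 of the 9 genes lay more than 1 above their median, Cpox by 2.36 and Fech by 1.75.

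Among the 14 membrane genes measured without the help of Roquin san/+ F, 5 lay more than 1 above their median on that array and 11 on wild-type C. Epb41, the gene of skeleton protein 4.1, was highest on Roquin san/+ F with a height of 1.52 and was at -0.12 relative to its median on wild-type C. Rhd (blood group antigen) and Aqp1 (water channel) behaved the other way, at 0.00 and -0.59 on Roquin san/+ F and 3.44 and 3.26 on wild-type C. Dmtn and Gypc, other membrane proteins of red cells, were at -1.06 and -0.64 on Roquin san/+ F and 1.35 and 0.86 on wild-type C. For Dmtn these are values of the brighter of 2 probes, while the other followed the order of the members over the 12 arrays (Spearman's rho of 0.951).

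The regulators were mostly low on Roquin san/+ F. Of 8 measured, 6 were below their median there, 4 of them by more than 1, and 7 were more than 1 above it on wild-type C. Gata1, the master factor of the lineage, was at its lowest of the 12 arrays on Roquin san/+ F (-1.50 relative to its median) and stood at 2.33 on wild-type C. Zfpm1, the partner protein of Gata1, was also lowest on Roquin san/+ F, at -0.74. The regulators above their median were Nfe2 and Bcl11a, named after their values were seen. Bcl11a, which B cells also express, was at 3.26. Of the 9 late erythroid genes measured without the help of Roquin san/+ F, 2 were more than 1 above their median there, and Tspo2, Hemgn and Slc38a5 were at -0.01, -0.98 and -1.22 there. The Hemgn value is that of the brighter of its 2 probes. The other probe followed the order of the members over the 12 arrays (Spearman's rho of 0.958), so Hemgn cannot be called low on Roquin san/+ F. Bnip3l, which acts in the clearance of mitochondria, was highest on Roquin san/+ F by a small margin, at 0.55.

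**Figure D3:**
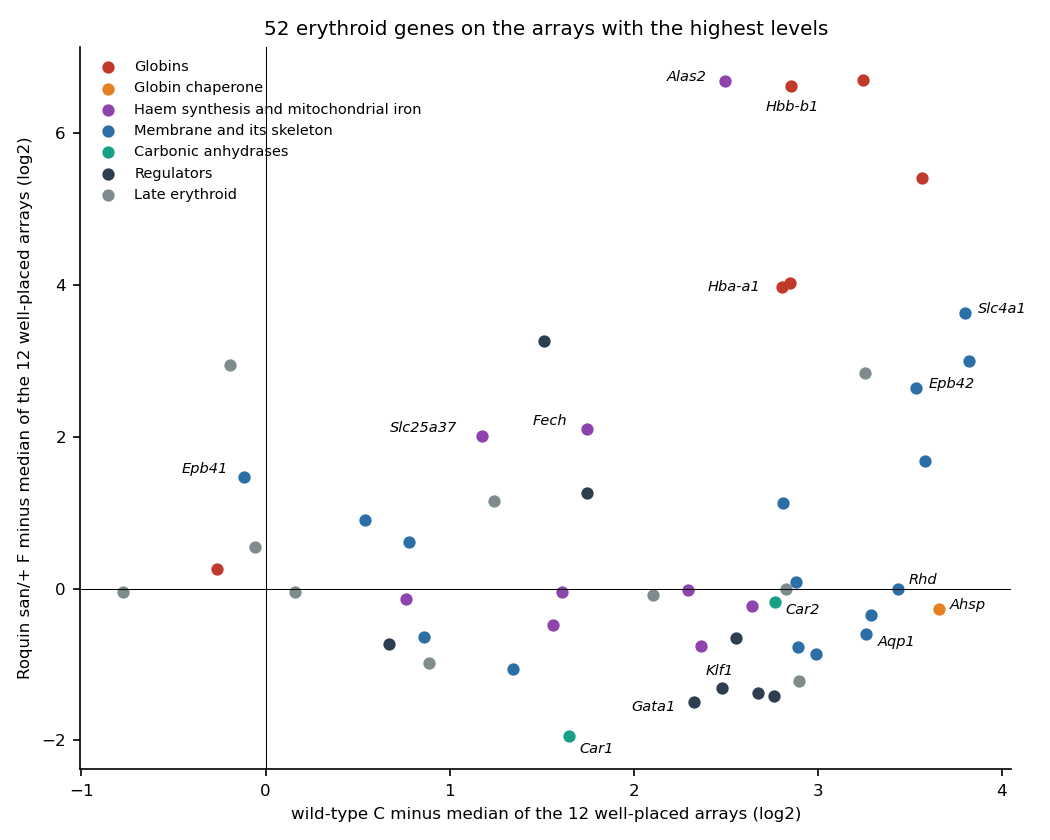
Deviation of 52 erythroid genes from their median over the 12 well-placed arrays (log2) on wild-type C (horizontal) and on Roquin san/+ F (vertical), coloured by role. Adult globins and Alas2 lie high on both axes, while Ahsp, Car2, Klf1 and Gata1 lie between 2.33 and 3.66 on wild-type C and between -1.50 and -0.17 on Roquin san/+ F.

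Markers of other blood cells moved with the erythroid genes on some arrays. On Roquin san/+ F all 9 B-cell markers, all 10 myeloid, all 6 NK, all 9 megakaryocyte and platelet, all 5 red pulp macrophage and both CD8 markers were above their median of the 12 arrays, as were 8 of 9 neutrophil markers. Median deviations there were 4.80 for B-cell, 5.33 for neutrophil and 5.17 for CD8 markers. All 8 T-cell markers were below their median there, with a median deviation of -1.30. On wild-type C neutrophil markers were above their medians in 9 of 9 cases (median 3.37), B-cell markers in 2 of 9 (-0.19) and T-cell markers in 0 of 8 (-0.90). On wild-type A the erythroid members had a median of 1.98 with neutrophil, B-cell and T-cell markers at -0.14, -1.48 and -0.16. The other lists thus stood at different values on these 3 arrays, all of them with high erythroid levels.

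The mean level of the 9 B-cell markers ranged from -6.63 to -0.36 over the Roquin san/+ arrays, or to -3.42 without F, and from -6.75 to -2.25 over the wild-type arrays. Corresponding ranges for the 9 neutrophil markers were -5.31 to 1.11, or to -1.33 without F, and -6.93 to -0.18. For the 8 T-cell markers they were 0.43 to 1.98 (from 0.92 without F) and 0.75 to 2.05. No list was wholly below background on any well-placed array. The part of these cells in the erythroid levels was not tested.

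**Figure D4:**
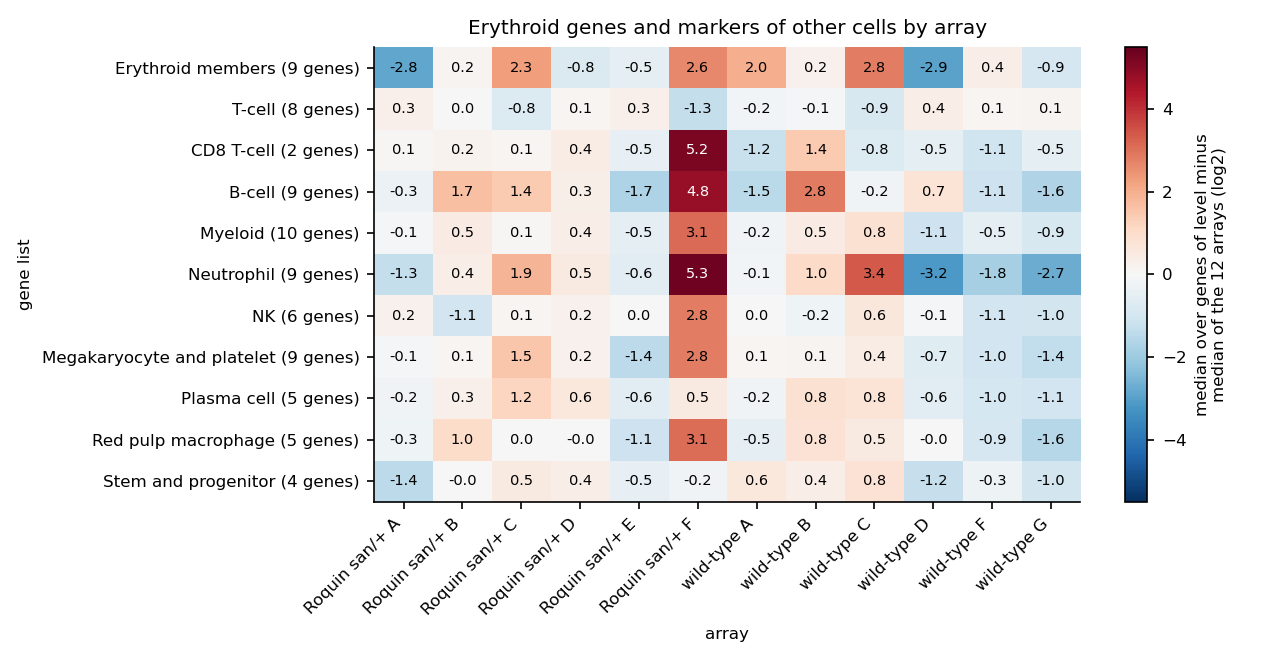
Median deviation of the 9 erythroid genes and of marker lists of other cells from their medians over 12 well-placed arrays (log2, colour and number), by array. The erythroid row is high on Roquin san/+ C and F and wild-type A and C, with neutrophil markers at 5.3 on Roquin san/+ F, 3.4 on wild-type C and -0.1 on wild-type A. Roquin san/+ C is the dim array, where the median deviation over all probes was itself 1.86.

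Whether the Roquin san/+ genotype changed the erythroid genes was asked with limma across all 56605 probes, with Benjamini-Hochberg adjustment over all of them. None of the 9 members was called, where the share called among all probes was 0% (0 of 56605). At an unadjusted p below 0.05 there were 0 of 9 members and 813 probes in all (1.44%), of which 761 were higher (1.34%) and 52 lower (0.0919%) in Roquin san/+. The median difference over all probes was itself 0.40 higher in Roquin san/+, and it was -0.03 after quantile normalization. Over the 29033 probes detected throughout a genotype it was 0.07, so the shift was mostly one of dim probes. Members are given beside both medians.

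The 9 differences (Roquin san/+ minus wild-type, log2) ran from -0.76 for Ahsp to 0.81 for Alas2, with a median of -0.32, and 1 of the 9 lay above the all-probe median. With dim probes filtered out 6 members remained, and 1 of them lay above the median of 0.07 over the remaining probes. Alas2 differed by 0.81 ± 1.37 (SE, n = 7 per genotype, limma adjusted p = 0.887). Hbb-b1 differed by 0.31 ± 1.40 and Slc4a1 by 0.26 ± 1.26, while Hba-a1 was at -0.06 ± 1.13 and Epb42 at -0.32 ± 1.07. For Hbb-b1, Alas2 and Epb42 the values of Roquin san/+ G and wild-type E that entered this fit are only upper limits. Without both of these arrays the differences were 0.39, 0.98 and -0.34. Ahsp was at -0.76 ± 0.98, Car1 at -0.69 ± 0.58, Car2 at -0.58 ± 0.87 and Klf1 at -0.39 ± 0.83. The SE exceeded the size of the difference for all but Car1. Adjusted p of the 9 members lay between 0.887 and 0.989. Over the 52 measured genes of the wider set 0 were called and 0 had an unadjusted p below 0.05, with 20 differences above 0 and 32 below.

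Single arrays decided the sign of several of these differences. Without Roquin san/+ F all 9 members were lower in Roquin san/+, with a median of -0.62, and Hbb-b1, Alas2 and Slc4a1 turned to -0.77, -0.19 and -0.27. Without wild-type C 6 of the 9 were higher, with a median of 0.09, and 4 lay above the all-probe median of 0.35. Within slide 1 the median was 0.78 with 7 of 9 higher, but the all-probe median was 1.13 there and 3 of 9 lay above it. Within slide 2 the median was -0.94 with 0 of 9 higher, against an all-probe median of -0.44. No member passed the adjusted threshold in any of these fits. With slide as a block the median was -0.26.

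**Figure D5:**
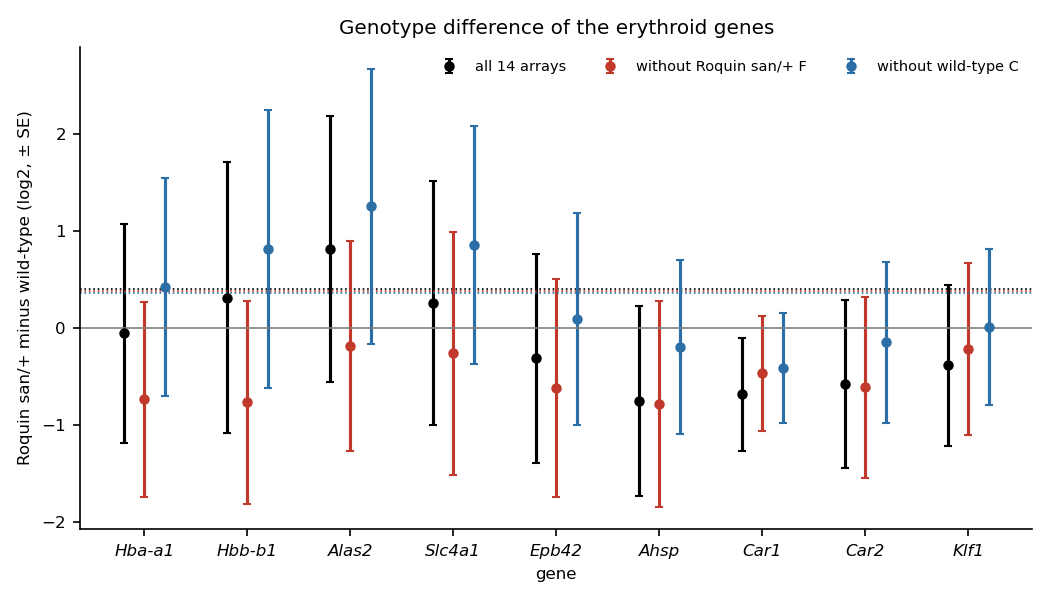
Genotype difference of each erythroid gene (Roquin san/+ minus wild-type, log2, with SE) over all 14 arrays in black, without Roquin san/+ F in red and without wild-type C in blue. Dotted lines are the median over all probes in each fit, and the red points of all 9 genes lie below 0.

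Other genes followed the members' pattern closely. Among 33019 probes of 21631 named genes, the 10 genes off the erythroid lists whose order over the 12 well-placed arrays was most like the mean of the 9 members were Slc6a13 (Spearman's rho of 1, also over the 11 arrays without Roquin san/+ F), Xpnpep1 and Cks2 (0.993 and 0.991 for both), Esco2, Tnfaip2 and Pole (0.986 and 0.982), Ercc6l (0.979 and 1), Crat and Ccnf (0.979 and 0.982) and Kif4 (0.979 and 0.973). Cks2 and cyclin F (Ccnf) act in the cell cycle, Esco2 in the joining of sister chromatids, Pole in DNA replication, and Kif4 and Ercc6l in mitosis. On wild-type C Esco2, Pole and Kif4 stood 2.26, 2.48 and 2.02 above their medians, and on Roquin san/+ F 0.64, 0.21 and 0.20. These are the highest of many correlations over few arrays and carry no p.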

How the data were processed

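Spot intensities from 14 Agilent arrays were analysed. The authors deposited the scanner's intensity files (Agilent Feature Extraction 10.5.1.1, per the file headers), in which the processed signal had been background-subtracted and detrended and given a lowest value. The authors' own log2 values were deposited too, and how they were made is not given in the sources used here. Names on Roquin san/+ G and wild-type E were moved by 2 rows. Flagged and control spots were left out, spots of a probe averaged on the log2 scale, and each array was scaled by subtracting its 75th percentile, taken over the 10320 probes that passed the software's background call on all 14 arrays. On Roquin san/+ G and wild-type E that call rested on misplaced control spots. No filter was applied. A gene is represented by its probe with the highest mean, and levels of the wider erythroid list are of that probe alone. Genotypes were compared with limma 3.58.1 in R 4.3.3 (lmFit, eBayes, threshold 0.05), checked on simulated data. In that check 200 of 56605 probes were given a change. The fit recovered 7% of changes of 1 log2 unit and 33% of changes of 2, and called 0 unchanged probes. The changed probes were drawn at random and the noise was independent between probes. These shares do not describe the members, whose SDs within a genotype ran from 1.13 (Car1) to 3.18 (Hbb-b1). Most changes of either size were thus missed, and a probe that was not called may still differ. Tables were made in Python 3.11.15 (numpy 2.4.6, pandas 2.3.3). The number of arrays limits the precision.

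The members and gene lists were chosen with earlier results of these data known. Named genes were the 9 members, at most 20 measured genes of the wider erythroid list by mean level, and the 10 most alike genes, and 1 gene of the list is not reported here. Alternatives covered background correction, scaling, the filter, slides, replicate letters, the variance model, the authors' log2 values, and leaving out arrays. The labels do not say whether the letters pair the arrays, and the main fit treated the arrays as unpaired. Same-lettered deviations correlated between -0.51 and 0.54. Arrays of different letters were not compared in this way, so these values cannot decide the pairing.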

Additional observations from a re-analysis of the deposited data

How the results depend on the processing

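No member and no probe was called by limma under any alternative, and of the order counts only one moved. With normexp 5 of 9 members, in place of 8, had Roquin san/+ A and wild-type D as their lowest arrays. The heights of Roquin san/+ F kept their sign under every scaling, and moved between settings by less than the SD of the other 5 Roquin san/+ arrays. That of Epb42 ranged most, from 1.08 with the authors' log2 values to 3.08. The signs of the genotype differences, none of them called, did depend on the setting, and the cause was not tested. Within slide 1 alone the differences turned to 0.99 for Hba-a1, 0.78 for Epb42, 0.17 for Car2 and 0.018 for Klf1, with a member median of 0.78, where the all-probe median was 1.13, above all 4. Within slide 2 alone they turned to -1.24 for Hbb-b1, -0.79 for Alas2 and -0.87 for Slc4a1. Without Roquin san/+ F and both displaced arrays these 3 genes stood at -0.87, -0.20 and -0.32, and without Roquin san/+ C as well, an alternative chosen after seeing the data, at -1.41, -0.89 and -1.16. Hba-a1, near 0 over all arrays, turned to 0.034 with the deposited names, 0.12 without the displaced arrays, 0.024 with slide as a block, 0.23 as the mean over probes and 0.14 with normexp without the displaced arrays. That last setting, also added after seeing the data, gave 0.35 for Epb42 and a member median of 0.14, and normexp alone gave 0.20 for Epb42. With the replicate block the member median remained -0.32 and 0 probes were called. With replicate block and slide block together Hba-a1 turned to 1.67, Ahsp to 0.67, Epb42 to 0.37, Car2 to 0.40 and Klf1 to 0.48, with a median of 0.67. Leaving out each array in turn gave -0.74 (without Roquin san/+ F) to 0.48 (without Roquin san/+ A) for Hba-a1 and -0.77 to 0.87 for Hbb-b1, at the same arrays. Alas2 ranged from -0.19 to 1.36 and Klf1 from -0.86 to 0.034, Slc4a1 from -0.44 (without wild-type D) to 0.85 (without wild-type C), Epb42 from -0.89 to 0.10 and the median from -0.81 to 0.10. Car1 was lower in Roquin san/+ under all alternatives. The dimmest member, Epb42, was well above background on 7 of 12 arrays, which limits its values most.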

Other observations

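Genes on the lists of other cells differed among themselves on the arrays with high erythroid levels. Among neutrophil markers, the late granule genes Camp, Ltf and Ngp lay 6.07, 6.52 and 6.25 above their medians on Roquin san/+ F, 3.77, 3.68 and 3.79 on wild-type C, and 0.14, -0.22 and -0.14 on wild-type A. Elane and Mpo, which encode proteases and peroxidase of the early granules of promyelocytes, stood at 0.48 and -0.01 on Roquin san/+ F, 2.07 and 2.05 on wild-type C and 1.40 and 1.62 on wild-type A. The progenitor genes Kit and Cd34 were at -0.72 and -0.60 on Roquin san/+ F, 1.68 and 1.26 on wild-type C and 1.05 and 0.995 on wild-type A. These genes were singled out after their values were seen.

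Gp9, a platelet surface glycoprotein gene, was at 3.97 on Roquin san/+ F, 2.70 on wild-type A and 3.40 on wild-type C, where the other 8 platelet markers reached at most 0.30 on wild-type A and 1.23 on wild-type C. Slc40a1, the iron exporter ferroportin, was at 2.15, 1.61 and 2.75 on the same 3 arrays, and Spic, a factor of red pulp macrophages, at 4.48, -1.27 and 0.00.

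Wild-type B had the highest B-cell markers of the wild-type arrays, with a median deviation of 2.84, while its erythroid members were at 0.24.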
